A study of Mus musculus with 9 samples.

Results

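Immunoglobulin heavy and light chain transcripts were followed across 9 Affymetrix Mouse 430.2 arrays of mouse germinal center B cells. The cells came from mice with 0, 1 or 2 floxed alleles of Foxo1, the gene of the transcription factor FOXO1. The members were all probe sets annotated to Igh, Igk, Igl, Igj or Jchain, or to a symbol beginning with an immunoglobulin constant, variable, joining or surrogate light chain prefix, and each was kept as a separate probe set. The rule met 62 of the 45037 non-control probe sets. Of these, 4 were annotated to Ighmbp2, a helicase gene whose symbol only shares the letters of the mu chain gene, and they were set aside, which left 58 antibody probe sets. The 4 differed by -0.08 to 0.23 between KO and WT on the log2 scale, none of them called. The 58 comprised 18 of a heavy chain constant region (11 Ighm, 4 Ighg3 and 3 Igha), 25 of variable segments, 8 annotated to constant and variable genes together, 4 of the whole kappa locus, 1 of Jchain and 2 of Igll1.

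The KO mice were FOXO1f/f, the HET mice FOXO1f/+ and the WT mice FOXO1+/+, with 3 arrays for each genotype. All 9 mice carried Cg1-Cre. As background, in that strain the recombinase is expressed from the constant region locus of the gamma-1 heavy chain, which is itself an antibody gene. Per the labels, mice aged 10 weeks received sheep red blood cells on days 0 and 5, and B220-high, PNA-high, CD95-high splenic B cells were sorted on day 12. The labels give 1 animal for each array, whereas the design text speaks of pooled spleen cells, and if pools were used the p-values measure only the spread between these preparations.

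An antibody is built of paired heavy and light chains. Each chain joins a variable segment, which binds antigen and is picked from a large family in every B cell, to a constant region, which in the heavy chain sets the antibody class. Naive B cells make the mu and delta classes, and class switch recombination in activated B cells brings a gamma, epsilon or alpha constant gene into the place of mu, while germinal center B cells also mutate the variable segments. FOXO1 is a forkhead transcription factor known to be needed for the dark zone program of the germinal center, the zone in which these cells divide and mutate their antibody genes.

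Of the 29 gene symbols carried by the members, only 2 had a promoter in the RefSeq table used here (GRCm38.p6), and both are shown. They belong to single genes that do not rearrange. Each runs 5′ to 3′ on the strand of the gene, from 250 bases before to 50 bases after the annotated start, and capitals mark the letters TAAACA, the core shared by forkhead motifs. Jchain, the joining chain of polymeric IgM and IgA, lies on the minus strand of chromosome 5 (chr5:88527848-88528147). Igll1, the lambda-5 part of the surrogate light chain of precursor B cells, lies on the minus strand of chromosome 16 (chr16:16863936-16864235).
Jchain: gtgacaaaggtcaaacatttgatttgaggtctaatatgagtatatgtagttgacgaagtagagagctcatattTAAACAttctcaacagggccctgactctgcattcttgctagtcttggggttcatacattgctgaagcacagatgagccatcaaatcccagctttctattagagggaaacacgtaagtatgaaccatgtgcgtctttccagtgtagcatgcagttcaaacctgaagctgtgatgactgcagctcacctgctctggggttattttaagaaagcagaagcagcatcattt
Igll1: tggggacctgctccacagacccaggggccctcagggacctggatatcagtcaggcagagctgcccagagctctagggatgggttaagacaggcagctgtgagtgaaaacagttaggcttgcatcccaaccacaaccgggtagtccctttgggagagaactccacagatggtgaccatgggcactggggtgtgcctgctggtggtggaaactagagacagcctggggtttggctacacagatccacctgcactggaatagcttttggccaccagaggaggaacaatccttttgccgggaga
The Jchain window held 1 match to TAAACA, starting at position 74 of 300, and the Igll1 window held none on either strand. TAAACA was chosen after the sequences were seen, and 13.4% of 32851 promoters of the same length held it on at least one strand. The longer forkhead motif GTAAACA, which contains TAAACA, was in neither window and in 3.65% of all promoters. The octamer ATGCAAAT, the motif of antibody gene promoters bound by OCT2, was in neither window and in 1.74% of all promoters. These matches describe letters only.

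Each array gave 1 MAS5 signal per probe set, a brightness on a linear scale with a trimmed mean of 500 on every array, and signals of different probe sets do not compare as amounts of transcript. Foxo1 checked the labels: on its 3 brightest probe sets the KO mean was 15.9% to 19.0% of the WT mean and the HET mean 55.5% to 65.4% of it, while the dimmest probe set was not lower. Array medians were 47.4 to 48.0 on the KO arrays, against at most 44.96 on any HET or WT array. Centring every array on its median shifted all KO vs WT differences by -0.12 on the log2 scale. No batch was named in the sources used here. Over the 23344 probe sets that reached their array's median on at least 3 arrays, 7.65% were called in KO against WT (limma, Benjamini-Hochberg adjusted p under 0.05, two-sided), with 3.96% higher and 3.69% lower. The number called, 1785, became 1177 when KO replicate 2 was left out, 984 when WT replicate 2 was and 976 when WT replicate 3 was. With centred arrays it was 2952, of which 611 were higher and 2341 lower, against 924 and 861 without centring.

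The largest changes among the antibody probe sets were in the heavy chain constant region, where 5 probe sets annotated to Ighm, the symbol of the mu constant gene, fell in KO cells to between 19.2% and 27.8% of the WT mean. That they read mu rests on the annotation alone: whether they also or instead read another heavy chain class, such as gamma, was not tested. A further 2 probe sets with the same annotation rose. Of the variable segments, 3 probe sets were higher in KO and none lower, and the kappa probe sets of the whole locus or of mixed annotation, Jchain and Igll1 were not called. Of the 58 antibody probe sets, 46 passed the signal filter and the other 12 lay between 0.258 and 36.9 on every array, below the array medians. In KO against WT, 10 of the 46 were called, 5 higher and 5 lower, beside 7.65% of all probe sets. Probe sets of the same symbol can read the same transcript, so these are counts of probe sets and not of separate changes. KO and WT arrays did not overlap in 6 members that were higher and 7 that were lower, beside 26.5% of all probe sets in either direction. The median difference was -0.01 over the 46 and 0.03 over all probe sets tested. With centred arrays 4 members were higher and 7 lower.

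**Figure D1:**
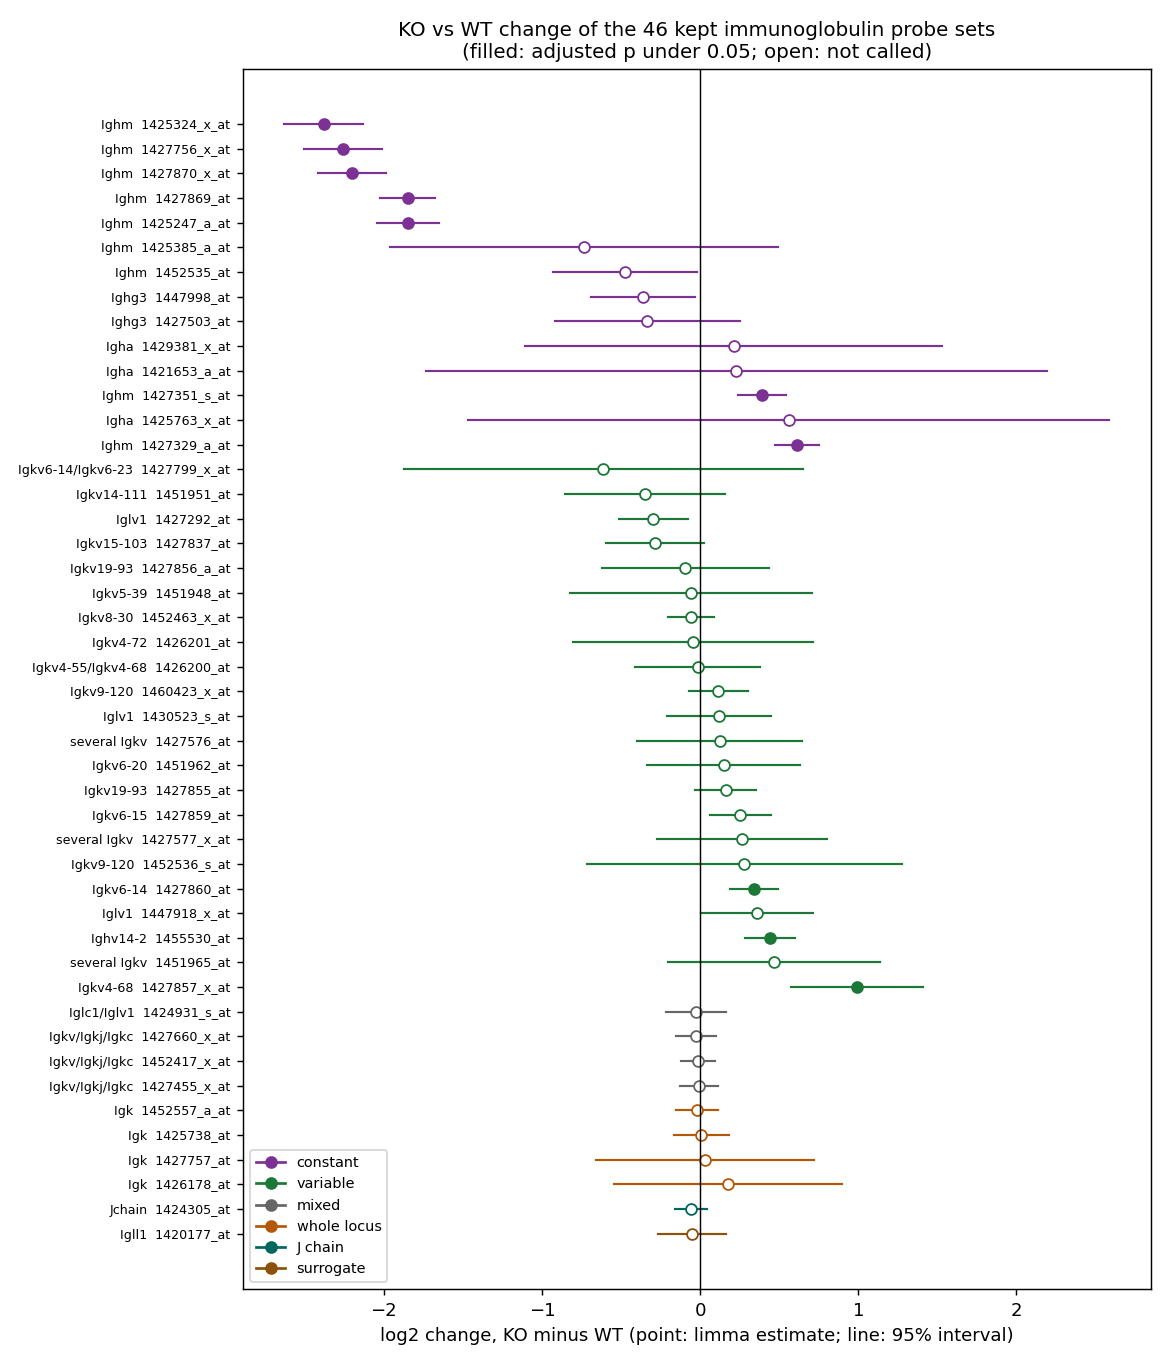
KO minus WT difference in log2 signal (horizontal axis) of the 46 antibody probe sets that passed the filter, with 95% confidence intervals from limma, 1 row for each probe set, grouped by class. The 5 falling Ighm probe sets lie between -2.38 and -1.85, far from the other members, while the Igkv/Igkj/Igkc probe sets lie close to 0.

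Probe set 1427869_at, annotated to Ighm, had signals of 2766, 3138 and 2618 on the KO arrays, 10477, 8950.3 and 9912 on the HET arrays and 10202, 9484 and 11016 on the WT arrays. The KO arrays lay well below all others, and the HET and WT arrays overlapped. The difference KO minus WT was -1.85 on the log2 scale (SE 0.08, limma adjusted p = 1.04e-07), a signal 3.60-fold lower. Probe set 1425247_a_at had almost the same values, with signals of 2639, 3066 and 2583 on the KO arrays, 9309, 8705 and 10113 on the HET arrays and 9491, 9054 and 11300.2 on the WT arrays. Again only the KO arrays were low, and the difference was -1.85 (limma adjusted p = 1.95e-07). In a bulk sample, fewer cells that carry a transcript and less of it in each cell cannot be told apart.

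The other 3 falling probe sets carry the suffix _x_at, which in Affymetrix naming marks probes that can also match other sequences. Probe set 1425247_a_at above carries the suffix _a_at, so of the 5 only 1427869_at entered the alternative without suffixed probe sets. Probe set 1427870_x_at had signals of 1375, 1607 and 1315 on the KO arrays, 6370.1, 5536 and 6786 on the HET arrays and 6754, 5864 and 7177 on the WT arrays. Probe set 1427756_x_at had signals of 1223, 1478 and 1198 on the KO arrays, 6197, 5207 and 6480.1 on the HET arrays and 6113, 5425 and 7137 on the WT arrays. Probe set 1425324_x_at had signals of 912, 1135 and 983 on the KO arrays, 5445, 4375 and 5481 on the HET arrays and 5218, 4604 and 5994 on the WT arrays. On all 3 the KO arrays were far below the others, and HET and WT arrays overlapped. The KO minus WT differences were -2.20, -2.26 and -2.38, and the folds lower over the 5 probe sets ran between 3.59 and 5.20. All 5 stayed called in every alternative that could be run on them.

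The same 5 probe sets differed little in mice with 1 floxed allele. HET means were 94.2% to 96.7% of the WT means, HET minus WT ran between -0.08 and -0.05, and the 95% intervals together spanned -0.30 to 0.20. KO against HET gave differences between -2.33 and -1.76, all called (limma adjusted p at most 4.6e-07). Foxo1 itself stood at an intermediate level in HET cells, as given above.

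The 2 rising Ighm probe sets moved by less. Probe set 1427329_a_at had signals of 7884, 8074 and 8123 on the KO arrays, 6331, 6614 and 5725 on the HET arrays and 5499, 4866 and 5397 on the WT arrays. The 3 genotypes formed separate, ordered ranges, with KO highest and WT lowest. The KO minus WT difference was 0.61 (SE 0.06, limma adjusted p = 9.22e-05) and KO minus HET was 0.37 (adjusted p = 0.00476, or 0.0523 with eBayes run without trend). HET minus WT was 0.24, with an unadjusted p = 0.00219 and an adjusted p = 0.999 by limma. Probe set 1427351_s_at, whose suffix _s_at marks probes shared by several transcripts, had signals of 8887, 9868 and 9898 on the KO arrays, 7866, 8256 and 7858 on the HET arrays and 7534, 6489.7 and 7885 on the WT arrays. All KO arrays exceeded all others here too. This gave a KO minus WT difference of 0.39 (SE 0.07, limma adjusted p = 0.00493), a call lost with eBayes run without trend (adjusted p = 0.0516).

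The annotation names the gene but not the stretch of transcript that each probe set reads, and whether the rising and the falling probe sets read the same transcript, or transcripts of the same class, was not tested. No member was annotated to Ighd, Ighg1, Ighg2b, Ighg2c or Ighe in the table used here, so these constant genes, which lie between Ighm and Igha on chromosome 12, have no probe set under their own name. Whether any probe set named Ighm reads their transcripts was not tested.

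**Figure D2:**
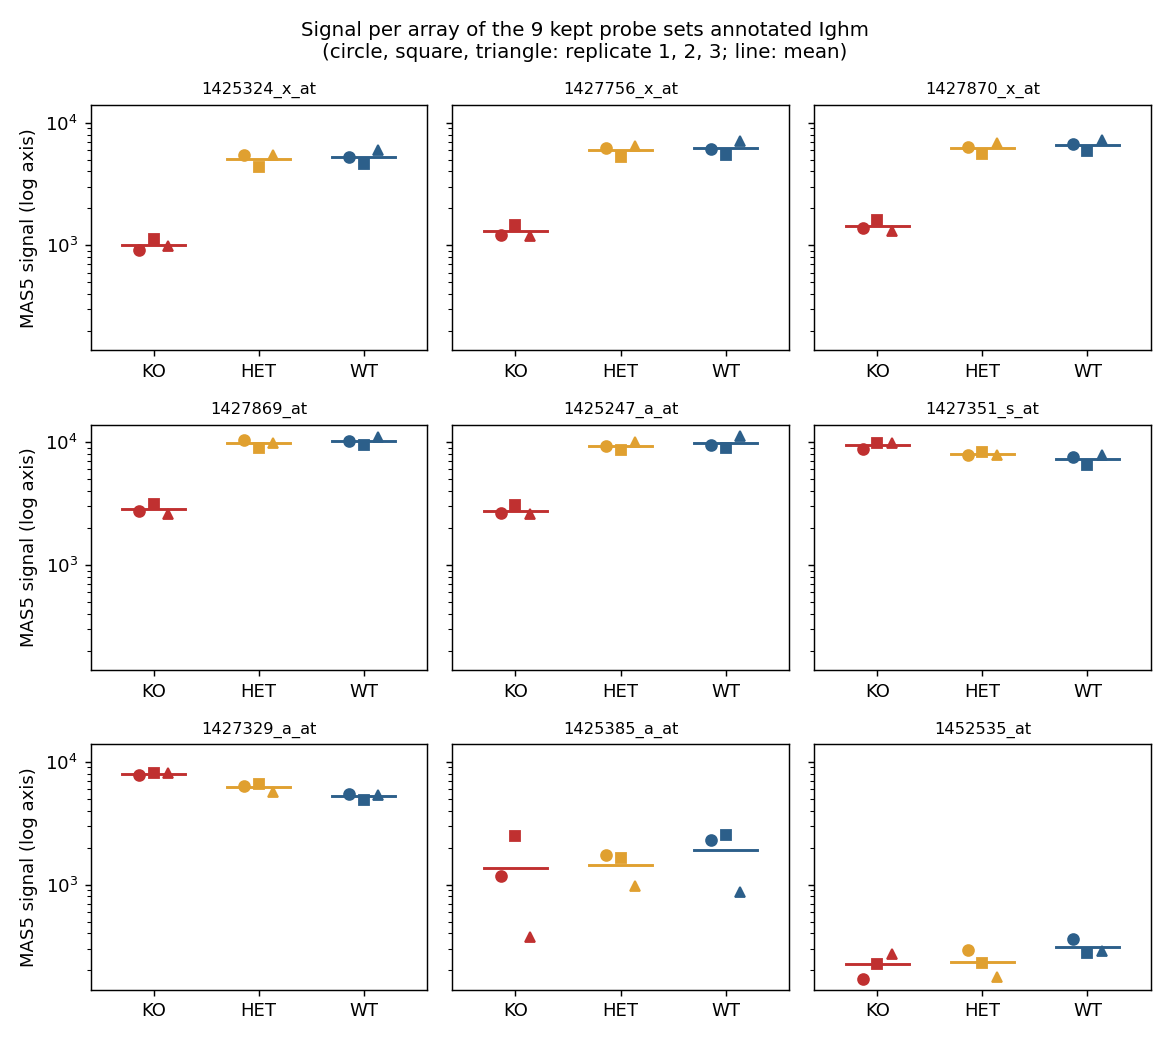
MAS5 signal per array (vertical axis, log scale) of the 9 Ighm probe sets that passed the filter, with KO, HET and WT arrays left to right in each panel and a line at the mean. In 5 panels the KO arrays sit alone at the bottom, in 2 they sit at the top, and in the 2 panels of 1425385_a_at and 1452535_at they overlap the HET arrays.

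The remaining 2 Ighm probe sets were not called. Probe set 1425385_a_at had signals of 1181, 2503 and 373 on the KO arrays, 1747, 1638 and 972 on the HET arrays and 2287, 2559 and 865 on the WT arrays. The arrays of each genotype spread widely and the ranges of all 3 overlapped. Between KO and WT the difference was -0.73 (limma adjusted p = 0.488), and 0.00 without KO replicate 3. Probe set 1452535_at had signals of 172, 225 and 274 on the KO arrays, 293, 229 and 176 on the HET arrays and 359, 278 and 286 on the WT arrays. The KO arrays lay below the WT arrays, HET lay across both, and KO minus WT was -0.47 (limma adjusted p = 0.204).

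Igha, the alpha constant gene of the class secreted at mucosal surfaces, varied more between arrays of 1 genotype than between genotypes. Probe set 1421653_a_at had signals of 219, 1813 and 138 on the KO arrays, 420.3, 173 and 602 on the HET arrays and 597, 645 and 88.1 on the WT arrays. Probe set 1425763_x_at had signals of 160.5, 1643 and 131 on the KO arrays, 298, 193 and 607 on the HET arrays and 414, 478 and 53.3 on the WT arrays. Probe set 1429381_x_at had signals of 96.9, 430.4 and 89.7 on the KO arrays, 127, 93.5 and 252 on the HET arrays and 203, 203 and 57.7 on the WT arrays. On all 3, KO replicate 2 was the highest array and WT replicate 3 the lowest, with ratios of highest to lowest of 20.6, 30.8 and 7.46. Their residual SD of 1.03 to 1.61 on the log2 scale compares with a median of 0.166 over all probe sets. On 1421653_a_at the KO minus WT difference was 0.23 (limma adjusted p = 0.915), -0.89 without KO replicate 2 and -0.70 without WT replicate 3, so its sign hung on single arrays.

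Ighg3, the gamma-3 constant gene, was not called on either of its 2 kept probe sets. Probe set 1447998_at had signals of 6896, 4616 and 6341 on the KO arrays, 7171, 7023 and 4900.2 on the HET arrays and 7281, 7337 and 7983 on the WT arrays. Probe set 1427503_at had signals of 3414, 1745 and 3606 on the KO arrays, 2882, 3021 and 1598 on the HET arrays and 3450.4, 4033 and 3085 on the WT arrays. KO replicate 2 and HET replicate 3 were the lowest of their genotypes on both. Without KO replicate 2, KO minus WT was -0.19 on 1447998_at and 0.00 on 1427503_at, which gave -0.52 without KO replicate 3. All KO arrays of 1447998_at lay below all WT arrays, and KO minus WT was -0.36 with a 95% interval of -0.69 to -0.03 (limma adjusted p = 0.181). For 1427503_at the groups overlapped and KO minus WT was -0.33 (adjusted p = 0.513).

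**Figure D3:**
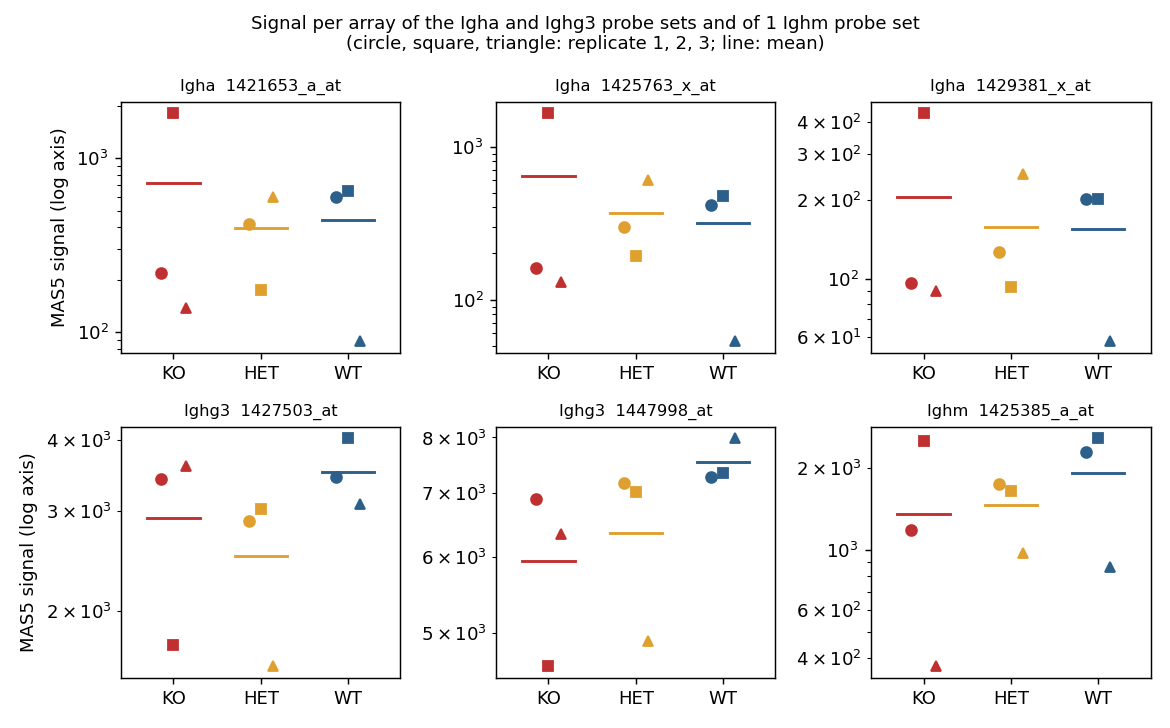
MAS5 signal per array (vertical axis, log scale) of the 3 Igha and 2 Ighg3 probe sets and of Ighm 1425385_a_at, with KO, HET and WT left to right, a marker shape for each replicate and a line at the mean. KO replicate 2 is the highest array and WT replicate 3 the lowest in every Igha panel.

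A ratio was formed on each array from the brightest kept Ighg3 probe set, 1447998_at, over the brightest kept Ighm probe set, 1427351_s_at. Brightness was the mean over all 9 arrays, KO included. On the WT arrays alone 1427869_at was brighter (mean 10234 against 7303), as it was on the HET arrays (9780 against 7993). Its fall in KO thus entered the choice of denominator, which the permutation test below does not allow for. The log2 of the ratio was -0.37, -1.10 and -0.64 on the KO arrays, -0.13, -0.23 and -0.68 on the HET arrays and -0.05, 0.18 and 0.02 on the WT arrays. Every WT array was above every array of the other genotypes. The difference KO minus WT was -0.75 and HET minus WT was -0.40, each with p = 0.10 in an exact two-sided permutation test, the smallest p that 3 arrays against 3 can give. Adjusted over the 6 ratio comparisons made, both became 0.30 (exact permutation, Benjamini-Hochberg). KO minus HET was -0.35 (exact permutation p = 0.30, adjusted 0.60). HET minus WT was -0.23 without HET replicate 3, and KO minus HET was -0.15 without KO replicate 2. The result hangs on which Ighm probe set is taken. When probe sets with a suffix were left out, the denominator became 1427869_at and KO minus WT was 1.49.

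Among the variable segments, 3 of 22 kept probe sets were called in KO against WT, all higher, beside the 3.96% of all probe sets called higher, and the KO arrays of 4 of the 22 lay wholly above the WT arrays, beside 15.4% of all probe sets. Ighv14-2, a heavy chain variable segment on 1455530_at, had signals of 3703, 3462 and 3307 on the KO arrays, 2880.4, 3068 and 3042 on the HET arrays and 2615, 2341 and 2773 on the WT arrays. The KO arrays were the highest and the WT arrays the lowest, with HET between them and no overlap. Ighv14-2 rose by 0.44 in KO against WT (SE 0.07, limma adjusted p = 0.00309). HET minus WT was 0.22 (unadjusted p = 0.0102, adjusted p = 0.999).

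The other called segments belong to the kappa light chain. Igkv4-68 on 1427857_x_at had signals of 945, 518 and 642 on the KO arrays, 405, 469 and 337 on the HET arrays and 346, 321 and 356 on the WT arrays. All KO arrays were above all others, and KO replicate 1 was the highest. The rise over WT was 0.99 (SE 0.19, limma adjusted p = 0.00772). A probe set shared between Igkv4-55 and Igkv4-68, 1426200_at, did not follow it, with a difference of -0.02 (limma adjusted p = 0.972). Igkv6-14 on 1427860_at had signals of 4130.2, 4143 and 4479 on the KO arrays, 2978, 3445 and 3338 on the HET arrays and 3244, 3559 and 3259 on the WT arrays. KO arrays again lay above the rest, while HET and WT overlapped. Igkv6-14 rose by 0.34 against WT (limma adjusted p = 0.0104), a call lost with centred arrays (adjusted p = 0.0604) and with eBayes run without trend (0.0581).

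Igkv6-15, from the same kappa family, averaged 5009 ± 493 in KO, 4259 ± 187 in HET and 4203 ± 493 in WT cells (SD, n = 3 each). Its KO minus WT difference was 0.26 with a 95% interval of 0.06 to 0.45, not called (limma adjusted p = 0.108). Of the 3 probe sets shared by Igkv6-14, Igkv6-23 and Igkv8-19, none was called, with KO minus WT of 0.12 on 1427576_at, 0.27 on 1427577_x_at and 0.46 on 1451965_at. On 1451965_at, singled out after its values were seen, the signals were 2609, 885 and 904 on the KO arrays, 958, 775 and 858 on the HET arrays and 962, 905 and 911 on the WT arrays. KO replicate 1 stood alone at the top and the other 8 arrays lay together, which the other two probe sets did not show. Igkv4-72 on 1426201_at showed the reverse, with signals of 224, 664 and 726 on the KO arrays, 618, 530.0 and 539 on the HET arrays and 467, 649 and 392 on the WT arrays. There KO replicate 1 was the lowest array. The 19 variable probe sets not called in KO against WT differed by -0.61 to 0.46, and the lowest limma adjusted p among them was 0.0989.

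Lambda variable segment probe sets did not move together. The 3 probe sets annotated to Iglv1 gave KO minus WT differences of -0.30 on 1427292_at, 0.12 on 1430523_s_at and 0.36 on 1447918_x_at, none of them called. Probe set 1427292_at had signals of 2368, 2662 and 2427 on the KO arrays, 3442, 3709 and 3415 on the HET arrays and 3584, 3070.3 and 2579 on the WT arrays. The KO arrays lay below all HET arrays and overlapped the WT range. KO minus HET was -0.50 (limma adjusted p = 0.0125), a call lost without HET replicate 2 (adjusted p = 0.0583) and with eBayes run without trend (0.0646). KO minus WT was called with centred arrays (adjusted p = 0.0137) and without WT replicate 3 (0.0176), and that of 1447918_x_at with only both genotypes fitted (0.0310).

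**Figure D4:**
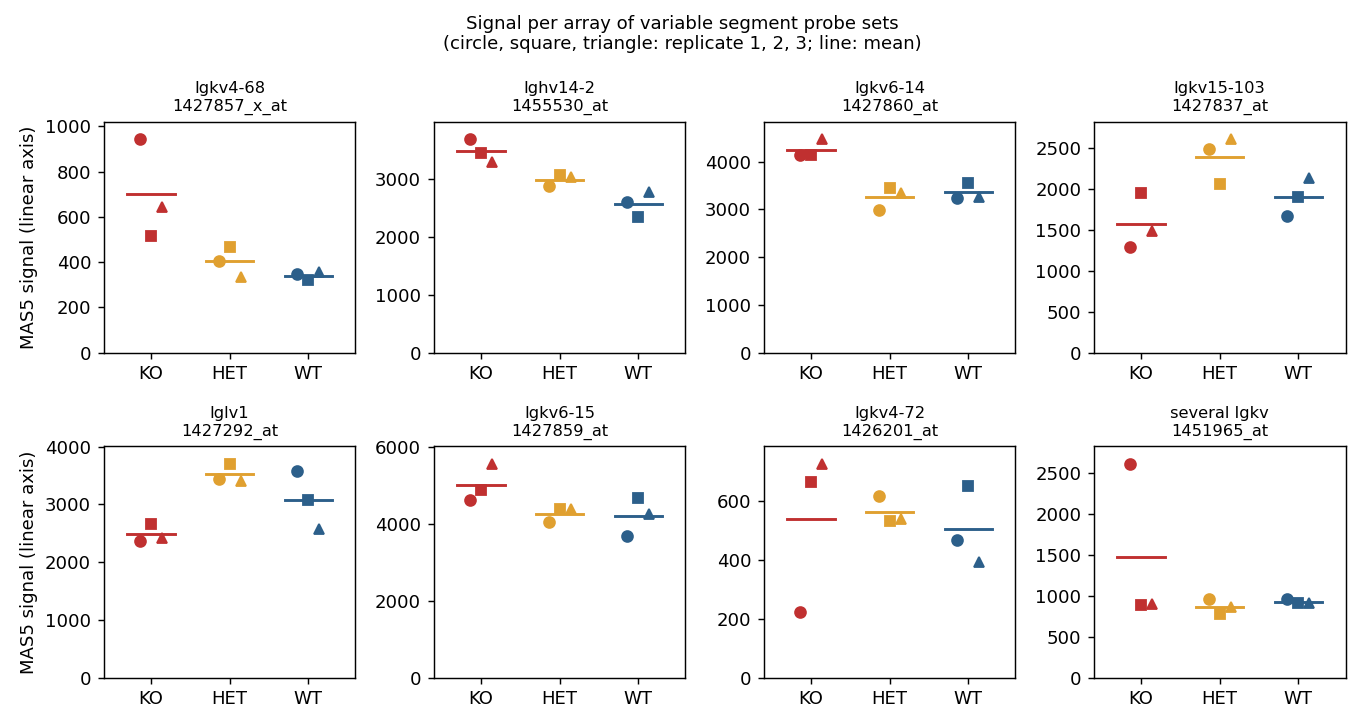
MAS5 signal per array (vertical axis, linear from 0) of selected variable segment probe sets, with KO, HET and WT left to right, a marker shape for each replicate and a line at the mean. KO arrays are highest for Ighv14-2, Igkv4-68 and Igkv6-14, and KO replicate 1 stands apart on 1451965_at and Igkv4-72.

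The spread between arrays of 1 genotype is given as a description, with no test. The median residual SD of the antibody probe sets was 0.235 on the log2 scale, 0.277 for variable segments and 0.217 for heavy constant regions, against 0.166 over all probe sets. The residual SD exceeded that overall median in 26 of 46 members, 15 of 22 variable segments and 9 of 14 constant regions. Counted by class, 5 of 14 heavy constant probe sets were lower and 2 higher in KO (median difference -0.42), and 3 of 22 variable probe sets were higher and none lower (median 0.12), beside 3.69% lower and 3.96% higher over all probe sets. All 5 that were lower are annotated to Ighm and may read the same transcript, so they do not count as separate changes. Whether the classes differ was not tested. With centred arrays the constant counts stood, while 2 variable probe sets were higher and 1 lower.

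The kappa light chain was also read by probe sets of the whole locus and by 3 annotated to Igkv, Igkj1 and Igkc together, so none reads the constant region alone by its annotation. The kappa locus probe set 1452557_a_at had signals of 14650.1, 15899.9 and 15420.4 on the KO arrays, 16232, 15796 and 14928 on the HET arrays and 14429, 15132 and 17132 on the WT arrays. The groups overlapped, and KO minus WT was -0.02. This probe set and the 3 of mixed annotation gave KO minus WT differences between -0.02 and -0.01, with 95% intervals together spanning -0.15 to 0.11. Whether signals of this brightness were close to saturation was not tested. None of the other 3 Igk probe sets was called.

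The lambda constant and variable probe set 1424931_s_at (Iglc1 and Iglv1) had signals of 7745, 8173 and 9501 on the KO arrays, 8619, 10237 and 8279 on the HET arrays and 8728, 8043 and 9048 on the WT arrays. The ranges overlapped and KO minus WT was -0.03 (95% interval -0.22 to 0.16). The log2 ratio of lambda to kappa signal, from 1424931_s_at over 1452557_a_at, differed by -0.01 between KO and WT (exact permutation p = 0.90, adjusted 0.90), and by 0.06 between HET and WT (exact permutation p = 0.60, adjusted 0.72). Between KO and HET it was -0.06 (exact permutation p = 0.50, adjusted 0.72). When probe sets with a suffix were left out, other probe sets entered the ratio and the differences were -0.31 for KO against WT, 0.19 for HET against WT and -0.50 for KO against HET.

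Jchain on 1424305_at had signals of 10066, 10918 and 10631 on the KO arrays, 11082, 11377 and 10491 on the HET arrays and 11274, 10647 and 10953 on the WT arrays. The genotypes overlapped and KO minus WT was -0.06 with a 95% interval of -0.16 to 0.05 (limma adjusted p = 0.522). It was called lower only with centred arrays (-0.18, adjusted p = 0.0445), which carry the general shift given above. Igll1 on 1420177_at had signals of 1199, 1187 and 1073 on the KO arrays, 1154, 1334 and 1040.1 on the HET arrays and 1273, 1135 and 1182 on the WT arrays. These overlapped as well, and KO minus WT was -0.05 (95% interval -0.27 to 0.16). The other Igll1 probe set, 1420176_x_at, did not pass the filter, with signals between 11.6 and 35.2 and below the median on every array.

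In HET against WT, none of the 46 members was called by limma, 3 had an unadjusted p under 0.05 (Ighm 1427329_a_at, Ighv14-2 and Igkv15-103) beside 3.56% of all probe sets, and 0.00428% of all probe sets were called. In KO against HET, 10 members were called, 3 higher and 7 lower, beside 5.58% of all probe sets, with 2.78% higher and 2.79% lower. Both comparisons with KO share the KO arrays, so they do not count as separate evidence. The constant probe sets called there were the 5 falling Ighm sets and the rising 1427329_a_at. The variable ones were Igkv6-14 (0.39) and Igkv4-68 (0.76) on the higher side, and Iglv1 (-0.50) and Igkv15-103 (-0.61) on the lower side. Igkv15-103, a kappa variable segment on 1427837_at, had signals of 1290.4, 1949.9 and 1491 on the KO arrays, 2490.2, 2065 and 2617 on the HET arrays and 1672, 1904 and 2137 on the WT arrays. The KO arrays all lay below the HET arrays, and WT lay across both. Igkv4-68 and Igkv15-103 lost their calls without KO replicate 1 (limma adjusted p = 0.0831 and 0.0762), without KO replicate 3 (0.0636 and 0.0703), without HET replicate 1 (0.0846 and 0.0812) and without HET replicate 3 (0.123 and 0.0943). Igkv4-68 also lost it without WT replicate 2 (0.0564) or 3 (0.0570), with quantile normalization (0.0628), centred arrays (0.0525), no signal filter (0.0561) and only both genotypes fitted (0.0804), and kept it in 7 of 18 alternatives. With eBayes run without trend, neither was called (Igkv4-68 at 0.0959 and Igkv15-103 at 0.0937).

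Genes that pair with, transcribe, rearrange or export antibody were read from 5 lists, chosen with earlier results of these data known. Beside each of their counts stand the 3.96% higher and 3.69% lower of all probe sets in KO against WT. In the list of B cell receptor partners, 11 probe sets were kept, and in KO against WT 2 were higher, 2 lower and 7 not called. Cd22, an inhibitory coreceptor, had signals of 2077, 2092 and 2249 on the KO arrays, 1707, 1737 and 1826 on the HET arrays and 1703, 1555 and 1382 on the WT arrays on probe set 1419769_at. All KO arrays exceeded all others, and KO minus WT was 0.47 (limma adjusted p = 0.00408). On its other probe set, 1419768_at, the groups overlapped and KO minus WT was 0.15, not called (adjusted p = 0.158). Vpreb3, a chaperone-like partner of immunoglobulin chains, rose by 0.32, a call lost with centred arrays, with eBayes run without trend and without KO replicate 3, WT replicate 1 or WT replicate 2 (highest adjusted p over all alternatives 0.109). Syk, the kinase that relays the receptor signal, fell on both of its called probe sets, and on 1418262_at the difference was -0.32. On its dimmer probe sets 1425797_a_at and 1457239_at the KO and WT arrays overlapped.

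Among regulators of immunoglobulin transcription, 6 of 32 kept probe sets were higher in KO, none lower and 26 not called. Irf4, a factor acting on light chain enhancers and in plasma cell development, had signals of 4627, 5296 and 4460.4 on the KO arrays, 3148, 2961 and 2598 on the HET arrays and 3124, 3322 and 2988 on the WT arrays. The KO arrays lay clear of both other genotypes, and KO minus WT was 0.61 (limma adjusted p = 0.000925). Ebf1, a B lineage factor, contributed 4 of the 6 probe sets, and on 1439789_at KO minus WT was 0.56. Pou2f2, which encodes OCT2, rose by 0.30, a call lost with centred arrays, with eBayes run without trend and when any KO array, WT replicate 1 or WT replicate 3 was left out (highest limma adjusted p over all alternatives 0.137).

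In the list of switching and hypermutation genes, 1 of 26 kept probe sets was called. Batf, a factor required for class switching in mouse B cells, had signals of 221, 286 and 164 on the KO arrays, 426, 478 and 314 on the HET arrays and 466, 616 and 570.1 on the WT arrays. All KO arrays were below all others, and KO minus WT was -1.32 (SE 0.21, limma adjusted p = 0.00216). Swap70, Exosc3 and Apex1, also in that list, had differences of 0.20, -0.31 and -0.17 and were not called. Exosc3, a subunit of the RNA exosome, was called lower with centred arrays (limma adjusted p = 0.0226) and without KO replicate 3 (0.0365). Apex1 on 1437715_x_at was also called lower with centred arrays (limma adjusted p = 0.0137).

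Of 21 kept probe sets for the change of antibody to its secreted form and its export, 4 were higher in KO, 1 lower and 16 not called. Prdm1, which encodes the plasma cell regulator BLIMP-1, had signals of 310.2, 492 and 335 on the KO arrays, 159.5, 176 and 149.6 on the HET arrays and 191, 229 and 193 on the WT arrays. KO replicate 2 was the highest array, and all KO arrays exceeded the rest. Prdm1 rose by 0.86 over WT (limma adjusted p = 0.0114, and 0.0502 without WT replicate 3). Ell2, an elongation factor that favours the secreted heavy chain transcript, rose by 0.34 (lost with centred arrays, adjusted p = 0.0607), and Edem1, which helps to degrade misfolded glycoproteins, by 0.52. Eaf2, a partner of ELL factors, had signals of 3526, 4198 and 4022 on the KO arrays, 5511, 5477 and 5486 on the HET arrays and 5480.2, 5409.7 and 5487 on the WT arrays. It was lower on every KO array, with KO minus WT of -0.48.

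Receptors for antibody gave 13 kept probe sets, of which 1 was higher, 2 lower and 10 not called. Fcer2a, which encodes the low-affinity IgE receptor CD23, had signals of 1224, 1217 and 1284 on the KO arrays, 2444, 2370.5 and 2523 on the HET arrays and 2107, 1957 and 2274 on the WT arrays. KO arrays were low, and HET arrays were above all WT arrays. The difference from WT was -0.76 in KO cells (limma adjusted p = 4.58e-05). Fcgr2b, the inhibitory IgG receptor, lay at the threshold (0.26, limma adjusted p = 0.0497) and lost its call in 14 of 18 alternatives, which included leaving out any KO array, any HET array, WT replicate 2 or WT replicate 3. In HET against WT no probe set of the 5 lists was called by limma, beside the 0.00428% above.

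**Figure D5:**
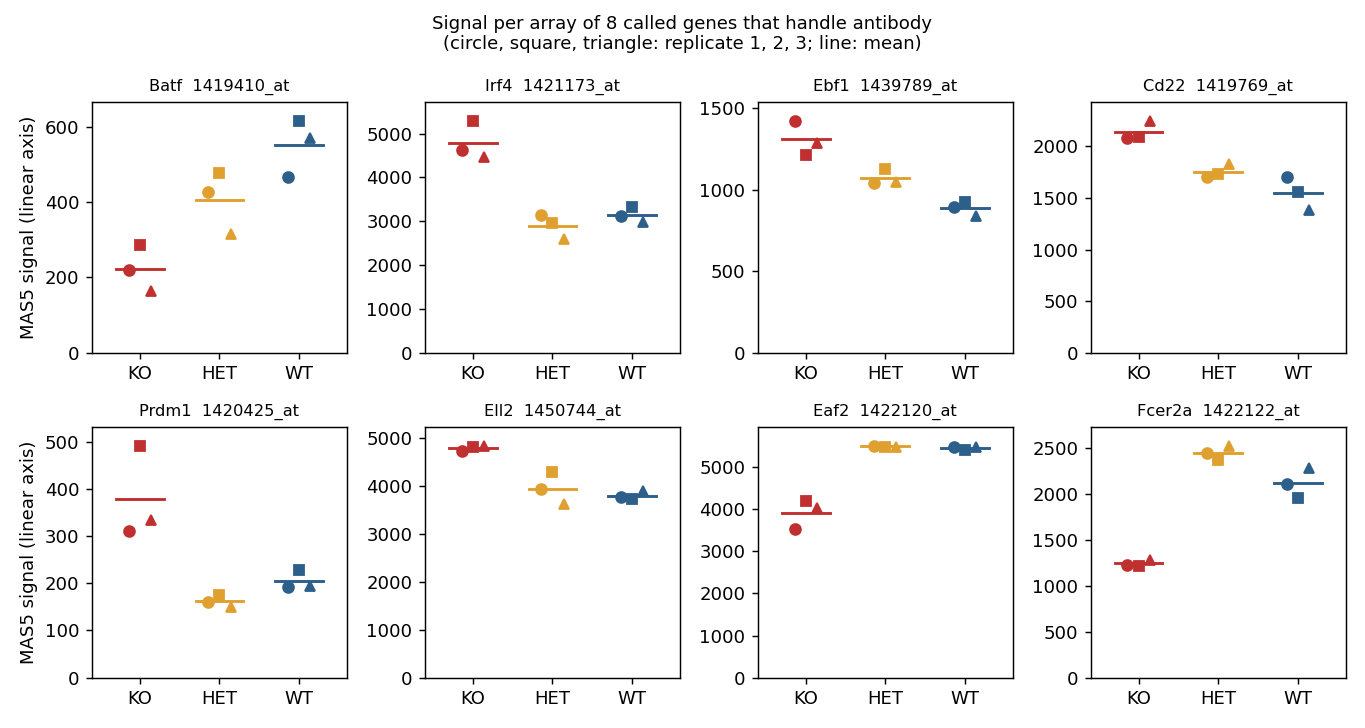
MAS5 signal per array (vertical axis, linear from 0) of 8 called genes from the lists, with KO, HET and WT left to right, a marker shape for each replicate and a line at the mean. KO arrays are lowest for Batf, Eaf2 and Fcer2a and highest for Irf4, Ebf1, Cd22, Prdm1 and Ell2.

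Marker genes of the cell types that the sort could hold moved in part with genotype. Unless stated otherwise, sums run over all probe sets of a list, including those that did not pass the filter. The calls are those of KO against WT, and beside each count stand the 3.96% higher and 3.69% lower of all probe sets. Pan-B cell markers had no call among 6 probe sets, and summed signals of 50493 to 53303 in KO, 48997 to 49894 in HET and 47702 to 51934 in WT cells. Germinal center markers were called higher on 1 of 10 probe sets (Fas, 0.30) and lower on 2 (both Gcsam, -1.51 and -1.36), with sums of 33540 to 35791 in KO, 37664 to 40731 in HET and 36542 to 41119 in WT cells. These sums include Gcsam, which on 1420544_at had signals of 1398, 1545 and 1452 on the KO arrays. Its HET signals were 3630, 3558 and 5170, and its WT signals 3598, 3650 and 4061. The other 7 germinal center probe sets were not called, and on Bcl6 1421818_at the KO and WT arrays overlapped. Sums without Gcsam were not formed, so the lower KO sums do not speak for the other germinal center markers. Over the 10 probe sets the median KO minus WT difference was 0.01. Plasma cell markers were higher in KO on 3 of 12 kept probe sets (Sdc1, Slpi and the Prdm1 set given above). The 12 summed to 25832 to 29453 in KO, 23969 to 25097 in HET and 22882 to 24356 in WT cells. Without Slpi the sums overlapped, at 17831 to 20808 in KO, 18893 to 20576 in HET and 19460.2 to 20377 in WT cells. Jchain alone gave 10066 to 11377 of these sums, so dimmer markers weigh little in them. Sdc1 on 1415943_at had signals of 146, 229 and 200 on the KO arrays, 104, 80.7 and 111 on the HET arrays and 77.6, 89.2 and 116 on the WT arrays. None of the 12 was called lower, and 9 were not called. Slpi had signals of 8000.4, 8066 and 9411 on the KO arrays, 5314, 4522 and 5076 on the HET arrays and 4418, 3422 and 3979 on the WT arrays, and Jchain, itself in that list, was not called. Marginal zone B cell markers were higher on 6 of 10 (Cd9, Cr2, Dtx1 and S1pr3), with sums of 19323 to 20529 in KO, 14010 to 15182 in HET and 14123 to 14368 in WT cells. Naive follicular markers were lower on 2 of 3, both of them Fcer2a, and B-1 cell markers on 3 of 4 (Spn and Plscr1). Myeloid markers were higher on 2 of 8 (Lyz2 and Cd68), with sums of 1174 to 1490 in KO, 688 to 1585 in HET and 545 to 1029 in WT cells, and of 10 T cell probe sets only 1 passed the filter, with sums of at most 238.4 on any array. No marker probe set was listed at 0. The part of these cell types in the Ighm, Ighv14-2 and kappa segment differences was not tested.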

How the data were processed

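The deposited table held 1 signal (an intensity on a linear scale) for each probe set and array, which the authors computed by MAS5 according to the submitters' processing notes (version not stated). Gene symbols came from the platform annotation of the probe sets, and no coordinates were taken from it. Signals were analysed as log2(signal + 2.09), the offset being the 10th percentile of all signals, so differences of dim probe sets are understated. Probe sets at or above their array's median on at least 3 of 9 arrays were kept, and linear models over all 9 arrays were fitted with limma 3.58.1 (lmFit, eBayes with trend) in R 4.3.3. Every adjusted p of a probe set is limma's, after Benjamini-Hochberg adjustment over all 23344 probe sets kept. The procedure was tested on simulated data. The precision is limited by the 3 arrays of each genotype. Members and gene lists were chosen with earlier results of these data known. By the rule for named probe sets, every kept constant, whole-locus, Jchain and Igll1 probe set was followed, with the variable segments of smallest KO vs WT p (8) or HET vs WT p, highest mean or largest spread (4 each), and up to 4 genes of each list by KO vs WT p. 1451965_at, 1426200_at and 1430523_s_at were described after their values were seen. Some listed genes were not analysed here.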

Additional observations from a re-analysis of the deposited data

How the results depend on the processing

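Alternatives changed the offset, the filter, the scaling, the variance trend, the arrays entering the fit and the probe sets allowed. The limits are the 3 arrays of each genotype, unknown batches, and a naming of probe sets by gene alone. No paired analysis was possible because the labels name no pairing. The replicate numbers used here only follow the order of the arrays within each genotype. Of the 20 calls made on members in KO against WT or KO against HET, 14 were kept under every alternative that held the probe set, and all 20 kept their sign. Of 1354 values recomputed for named probe sets, 68 lost a call, 9 gained one and none reversed a call, while 27 uncalled values changed sign. The cause of the changes below was not tested, except that leaving out probe sets or arrays removes data by construction.

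With centred arrays 2952 probe sets were called in KO against WT. With eBayes run without trend, KO against HET gave 825 probe sets, 6 members and 1 variable segment. Without probe sets of suffix _s_at, _x_at or _a_at, KO against WT gave 3 of 22 members and 1 of 4 constant probe sets, beside 1402 of all 17403 probe sets. The main fit, over a larger set of probe sets, called 5.58% of them in KO against HET. Without those suffixes, KO against HET gave 4 of 22 members and 1 of 4 constant probe sets. The Ighg over Ighm difference was then 1.49 in KO against WT and 1.69 in KO against HET, and the lambda over kappa difference was -0.31 in KO against WT, 0.19 in HET against WT and -0.50 in KO against HET. With the other genotype left out of the fit, HET against WT gave 5 probe sets. Leaving out 1 array at a time gave 976 to 1663 probe sets in KO against WT, 1 to 3 in HET against WT and 695 to 1175 in KO against HET, and 2 to 4 variable segments in KO against HET.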
